A study of Homo sapiens with 4 samples.

Results

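Proteasome subunit genes were defined as the protein-coding genes whose symbol begins with PSMA, PSMB, PSMC, PSMD or PSME followed by a number. Among the 62443 genes of the deposited table, 93 symbols had these letters, and 43 genes remained after 42 pseudogenes, 6 long non-coding RNAs and 2 genes for proteins that are not subunits (PSMC3IP and PSME3IP1) had been left out. The 43 genes comprised 16 of the core particle (8 α and 8 constitutive β), 17 of the regulatory cap, 3 chaperones of cap assembly, 5 of the immunoproteasome group (PSMB8, PSMB9, PSMB10, PSME1 and PSME2) and 2 further activators (PSME3 and PSME4).

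The human gastric cancer line HGC-27 was sequenced in 2 libraries of GLUP-treated cells and 2 of control cells (Con). GLUP is a cyclic peptide, made from the TEAD4-binding part of the cofactor VGLL4, that drives the transcription factor TEAD4 into condensates, and the series asks which pathways it alters. The dose was 10 μg/ml, and the duration is given as 12 h in the results and as 48 h in the methods. Control cells received the buffer of the peptide according to the methods, whereas the labels record no treatment.

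The proteasome is a barrel-shaped protease that degrades proteins tagged with ubiquitin. Its barrel consists of outer rings of α subunits, which gate the entrance, and inner rings of β subunits, of which PSMB5, PSMB6 and PSMB7 carry the active sites. A cap with a ring of ATPases and a lid recognises, unfolds and de-ubiquitinates the substrate. Under interferon, PSMB8, PSMB9 and PSMB10 take the place of the active β subunits and the PA28 activator (PSME1 and PSME2) is induced, which alters the peptides offered to MHC class I. When proteasome activity is short, the transcription factor NRF1 (NFE2L1) raises subunit transcription through antioxidant response elements.

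Values are FPKM, in which the fragments of a gene are divided by transcript length and by the total mapped, so levels of different genes are compared per length. They were tested on the log2(FPKM + 1) scale with limma, where ± gives the standard error of the fold change. This scale understates the fold change of low genes. Sequencing depth is unknown. FPKM summed over all genes lay between 909735 and 949919 per library, and the 7588 genes that averaged 1 FPKM or more were tested. The log2 fold change of GLUP against control had a median of −0.36 over these genes, so −0.36 is the difference of the typical gene. Control replicates resembled each other less (Pearson r of 0.9715 over the members tested) than GLUP replicates did (0.9985). More than a 2-fold difference between the control libraries was seen in 9 of 41 members (22%, against 19.1% of all genes tested), and between the GLUP libraries in 0 of 41 (1.63% of all genes). As regards cell identity, of the 4 mesenchymal markers vimentin (VIM) stood at 293 to 387 FPKM, ZEB1 at 7.05 and 19.2 FPKM in control and 2.88 and 2.92 FPKM in GLUP libraries, FN1 at 0.655 to 3.25 FPKM and CDH2 at or under 0.0508 FPKM. The fibroblast collagens COL3A1 and COL1A1 lay at 15.3 to 21.5 and at 2.97 to 6.90 FPKM. The epithelial markers EPCAM and CDH1 lay at or under 0.124 FPKM in every library and the keratins KRT8, KRT18 and KRT19 at 0.764 to 2.25 FPKM. Of the haematopoietic markers, CD3E was listed at 0 in every library, PTPRC and CD68 lay at or under 0.0394 FPKM, and LYZ was at 0.25 FPKM in control replicate 2 and 0 elsewhere. In RNA from bulk cells, fewer cells of a kind and less RNA per cell cannot be told apart.

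Proteasome transcripts took up a smaller share of the summed FPKM in GLUP-treated cells. Summed over the 43 genes, they amounted to 21205 and 20040 FPKM in control and to 14469 and 16140 FPKM in GLUP libraries. These sums are 2.33% and 2.17% of all FPKM in control and 1.55% and 1.70% in GLUP libraries, and the groups did not overlap. The same order, both GLUP libraries below both control libraries, held for 49.7% of the 7588 genes tested. Their median log2 fold change was −0.36, so a lower value is not particular to these genes. PSME2 is the largest single term of each sum, so the sums follow a few abundant genes.

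Of the 43 genes, 41 passed the minimum of 1 FPKM. The exceptions were both tissue-restricted forms. PSMA8, an α subunit of the testis, was listed at 0 in every library, and PSMB11, the β subunit of the thymic epithelium, had 0.0754 FPKM in GLUP replicate 1 and 0 elsewhere. The plot of levels in each library shows the other 41.

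**Figure D1:**
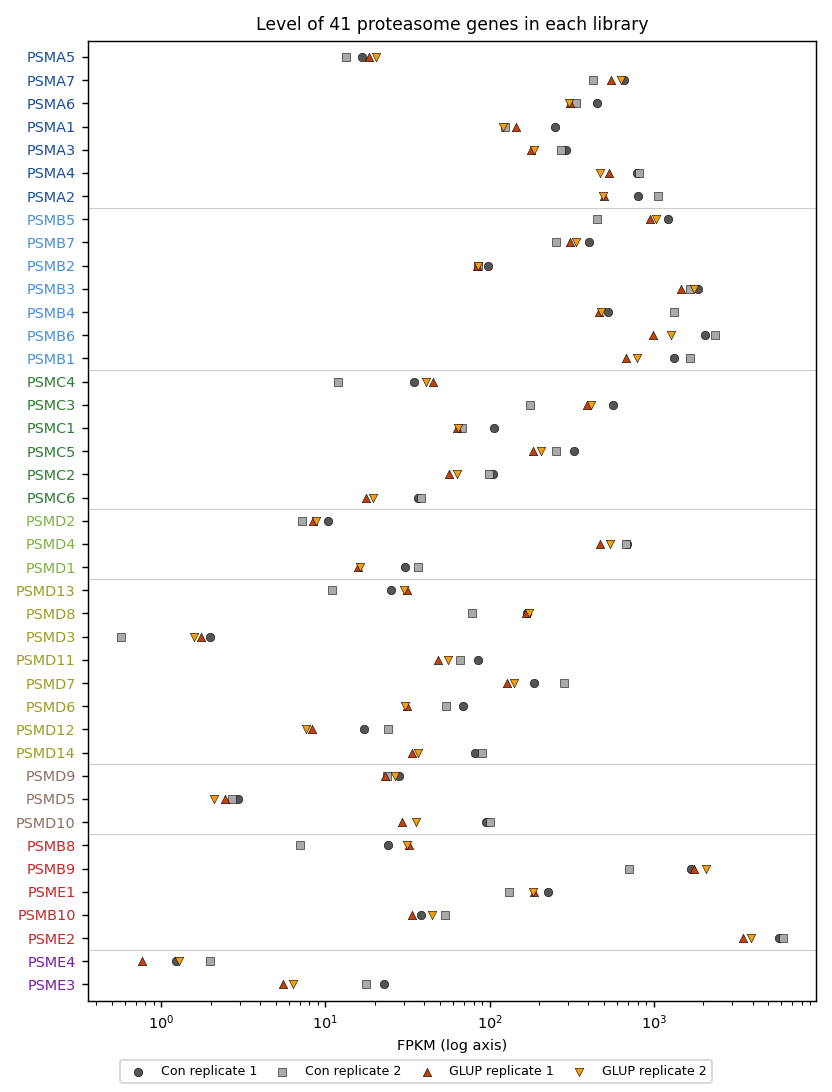
FPKM (log axis) of the 41 tested proteasome genes in each library, with control replicates as grey circles and squares and GLUP replicates as triangles, and gene names coloured by subunit group. The GLUP triangles lie close together, while control replicate 2 stands apart for PSMB8, PSMC4, PSMD13 and PSMD3, and PSMB9 and PSME2 are the most abundant members of the immunoproteasome group.

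No proteasome gene passed the adjusted test, so no gene is called changed. At an adjusted p under 0.05 with a fold change over 2 (limma, Benjamini-Hochberg over 7588 genes) 0 of 41 members were called, against 2 (0.0264%) of all genes. With a fold change over 2 and an unadjusted p under 0.05, 6 of 41 members (14.6%) were lower, against 14.5% of all genes, and 0 were higher, against 4.67%. After centring on library medians, 2 were lower (PSME3 and PSMD10) and 4 higher (PSMB8, PSMB9, PSMC4 and PSMD13), against 5.64% and 10.5% of all genes, and 22 members lay below 0 and 19 above. Without regard to fold, 11 members (26.8%) were lower at an unadjusted p under 0.05, against 25.4% of all genes, and 0 were higher, against 6.37%. GLUP libraries were both below both control libraries for 23 of 41 members (56.1%), against 49.7% of all genes, and above them for 5 of 41 (12.2%), against 17.5%. The log2 fold change was below 0 for 29 members (70.7%) and above 0 for 12, against 66.7% and 33.3% of all genes. Their median of −0.41 was close to the −0.36 of all genes. As a family, the proteasome genes thus differed between the groups about as the other genes did, and what follows describes how they differed among themselves.

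**Figure D2:**
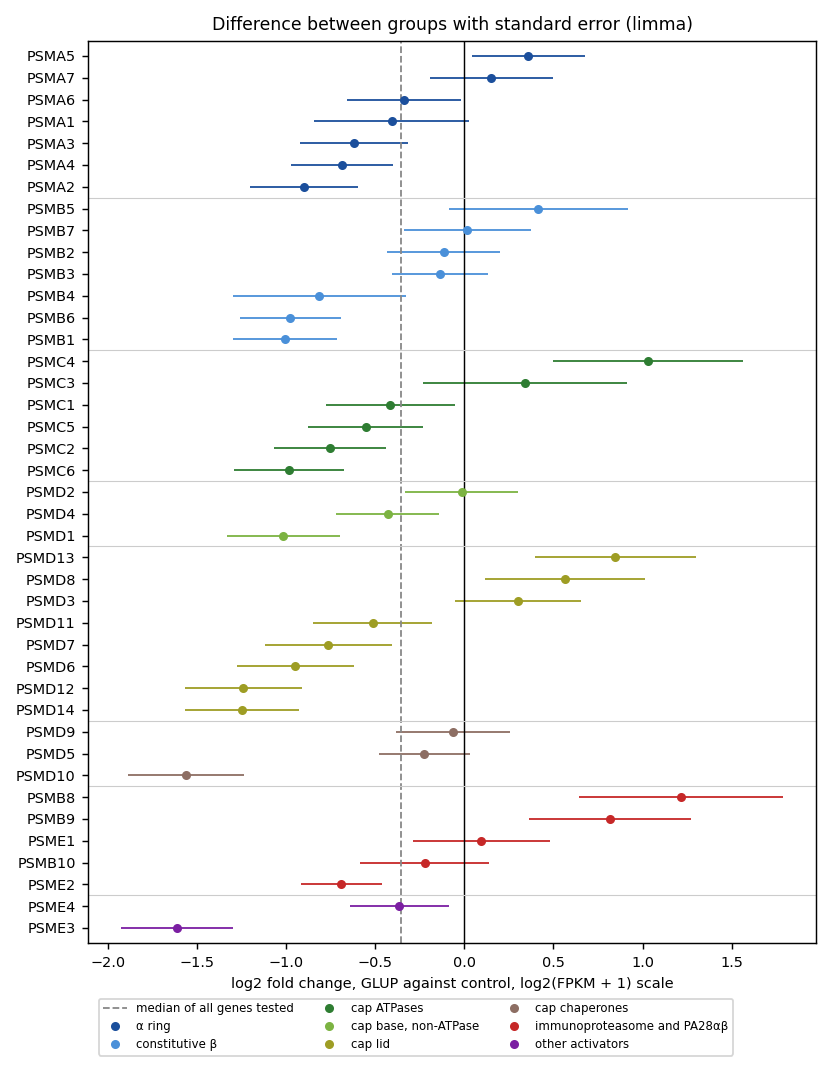
Log2 fold change of GLUP against control (horizontal axis, log2(FPKM + 1) scale) for the 41 tested genes, each point with its standard error from limma and coloured by subunit group, with the median of all genes tested (−0.36) as a dashed line. Values run from −1.61 (PSME3) to 1.22 (PSMB8), and most cap lid genes lie left of the line while PSMB8 and PSMB9 lie right of 0.

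Within the core, the α ring and the β ring each held members on both sides of 0. The median log2 fold change was −0.41 for the 7 tested α genes and −0.14 for the 7 tested constitutive β genes. PSMA2 had the lowest value of the α ring, with 805 and 1065 FPKM in control and 499 and 491 FPKM in GLUP libraries. Both treated values lay below both control values (log2 fold change −0.90 ± 0.30, limma adjusted p = 0.123). The same order held for PSMA3, PSMA4 and PSMA6, with log2 fold changes between −0.69 and −0.34. PSMA5 had the reverse order, with 16.7 and 13.3 FPKM in control and 18.5 and 20.3 FPKM in GLUP libraries (log2 fold change 0.36 ± 0.32, limma adjusted p = 0.442). For PSMA1 and PSMA7 the groups overlapped, at log2 fold changes of −0.41 and 0.15.

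Among the constitutive β genes, the catalytic members parted. PSMB6, which carries the caspase-like site, stood at 2053 and 2368 FPKM in control and at 989 and 1265 FPKM in GLUP libraries, without overlap (log2 fold change −0.98 ± 0.28, limma adjusted p = 0.107). PSMB5, which carries the chymotrypsin-like site targeted by proteasome inhibitors, stood at 1221 and 454 FPKM in control and at 954 and 1035 FPKM in GLUP libraries. Its GLUP values fell between the control values, and its log2 fold change of 0.42 ± 0.50 (limma adjusted p = 0.572) became −0.30 without control replicate 2. PSMB7, with the trypsin-like site, had 402 and 252 FPKM in control and 308 and 337 FPKM in GLUP libraries, again between the control values (log2 fold change 0.02 ± 0.36, limma adjusted p = 0.977). The structural subunit PSMB1 had 1322 and 1663 FPKM in control and 682 and 795 FPKM in GLUP libraries (log2 fold change −1.01 ± 0.29, limma adjusted p = 0.107), and it was at −0.32 with the trend along GC content removed, against −1.16 for PSMB6. It was the only core gene among the 6 members that were lower at an unadjusted p under 0.05 with a fold change over 2. PSMB4 at −0.81 and PSMB2 at −0.12 also had both GLUP libraries below both control libraries, whereas PSMB3 at −0.14 overlapped. For PSMB4 the difference rested on control replicate 2, at 1325 FPKM against 523 FPKM in control replicate 1 and 467 and 480 FPKM with GLUP.

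The regulatory cap had the lowest median of the 3 complexes, −0.52 over 17 genes, against −0.37 over the 14 tested core genes and 0.09 over the 5 immunoproteasome genes. Without GLUP replicate 1 the order of cap and core turned, with medians of −0.066 and −0.089 relative to all genes. No test between these groups was made, since the members were chosen together. In the base, the ATPases that unfold substrates ran from PSMC6 to PSMC4. PSMC6 stood at 36.9 and 38.5 FPKM in control and at 17.7 and 19.4 FPKM in GLUP libraries, a pair of tight and separate groups (log2 fold change −0.98 ± 0.31, limma adjusted p = 0.114). PSMC4 had 34.9 and 11.9 FPKM in control and 44.9 and 41.1 FPKM in GLUP libraries, so that its log2 fold change of 1.03 ± 0.53 (limma adjusted p = 0.227) was 0.29 without control replicate 2. The other ATPases were PSMC2 at −0.75, PSMC5 at −0.55 and PSMC1 at −0.42, all with both GLUP libraries below both control libraries, and PSMC3 at 0.34, which overlapped. For PSMC1, 13 pseudogenes summed to 27.1% to 32.6% of its own FPKM, so reads may be split between the copies.

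The base also holds the scaffolds PSMD1 and PSMD2 and the ubiquitin receptor PSMD4. PSMD1 had 30.5 and 36.6 FPKM in control and 15.7 and 16.3 FPKM in GLUP libraries (log2 fold change −1.02 ± 0.32, limma adjusted p = 0.113). Its partner scaffold PSMD2 had 10.4 and 7.23 FPKM in control and 8.46 and 8.72 FPKM in GLUP libraries, so the treated values fell between the control values (log2 fold change −0.02 ± 0.32, limma adjusted p = 0.976). PSMD4 lay between them at −0.43.

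Lid genes ran from −1.25 to 0.85 with a median of −0.64. PSMD14, the metalloprotease that removes ubiquitin chains from the substrate, stood at 81.0 and 89.96 FPKM in control and at 33.9 and 36.9 FPKM in GLUP libraries. These groups did not overlap (log2 fold change −1.25 ± 0.32, limma adjusted p = 0.10). PSMD12, a scaffold of the lid, was similar at 17.1 and 23.9 FPKM in control and 8.33 and 7.64 FPKM in GLUP libraries (log2 fold change −1.24, limma adjusted p = 0.101). PSMD6, PSMD7 and PSMD11 were at −0.95, −0.77 and −0.52, each with both GLUP libraries below both control libraries. PSMD13 had the highest value of the lid, with 25.2 and 10.9 FPKM in control and 31.6 and 30.1 FPKM in GLUP libraries (log2 fold change 0.85 ± 0.45, limma adjusted p = 0.239), and was at 0.28 without control replicate 2. PSMD8 at 0.56 and PSMD3 at 0.30 overlapped, and in both the lowest library was control replicate 2.

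The 3 chaperones that help assemble the ATPase ring differed from each other. PSMD10, also called gankyrin, had 94.8 and 100.9 FPKM in control and 29.4 and 35.8 FPKM in GLUP libraries. The groups were far apart relative to their spread, with a log2 fold change of −1.56 ± 0.32 (limma adjusted p = 0.10). PSMD9 stood at 28.2 and 23.8 FPKM in control and at 23.1 and 26.4 FPKM in GLUP libraries, which overlap (log2 fold change −0.07 ± 0.32, limma adjusted p = 0.895). PSMD5 was low throughout, at 2.10 to 2.94 FPKM, with a log2 fold change of −0.23.

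In the immunoproteasome group, 2 of 5 genes had both GLUP libraries above both control libraries, against 17.5% of all genes. In 1 of 5 they lay below, against 49.7%, and 5 genes are too few to tell these shares apart. PSMB8, the counterpart of PSMB5, stood at 24.02 and 6.97 FPKM in control and at 32.3 and 31.4 FPKM in GLUP libraries. Its log2 fold change of 1.22 ± 0.57 (95% interval −0.20 to 2.63, limma adjusted p = 0.198) was 2.04 when control replicate 1 was left out and 0.39 when control replicate 2 was left out. PSMB9, the counterpart of PSMB6, stood at 1678 and 703 FPKM in control and at 1769 and 2071 FPKM in GLUP libraries. It was at 0.82 ± 0.46 (limma adjusted p = 0.253), and at 1.44 and 0.19 without control replicate 1 and 2. Control replicate 1 of both genes was thus close to the GLUP libraries, and control replicate 2 set most of the difference. PSMB10, the counterpart of PSMB7, overlapped at 38.3 and 53.7 FPKM in control and 33.8 and 44.3 FPKM in GLUP libraries (log2 fold change −0.22 ± 0.36, limma adjusted p = 0.675), and its sign turned to 0.12 when libraries were centred on their medians.

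PA28 is built from PSME1 and PSME2, and these differed from each other. PSME2 was the most abundant proteasome transcript, at 5812 and 6154 FPKM in control and 3512 and 3910 FPKM in GLUP libraries, without overlap (log2 fold change −0.69 ± 0.23, limma adjusted p = 0.121). PSME1 overlapped, with 227 and 131 FPKM in control and 185 and 183 FPKM in GLUP libraries (log2 fold change 0.09 ± 0.38, limma adjusted p = 0.875). Although both chains assemble into the same ring, the ratio of PSME1 to PSME2 FPKM was 0.0391 and 0.0213 in control and 0.0528 and 0.0468 in GLUP libraries. Reads of 6 PSME2 pseudogenes amounted to 1.83% to 2.56% of PSME2 in each library. Among the further activators, PSME3 (PA28γ, the nuclear activator) had the lowest log2 fold change of all members. It stood at 22.8 and 17.7 FPKM in control and at 5.50 and 6.34 FPKM in GLUP libraries (−1.61 ± 0.31, limma adjusted p = 0.10). PSME3 shares 8966 bases with BECN1 on the opposite strand, which stood at 15.8 and 9.08 FPKM in control and 6.01 and 6.18 FPKM in GLUP libraries, and the sources do not say if reads were counted by strand. PSME4 (PA200) was near the minimum level, at 1.23 and 1.98 FPKM in control and 0.762 and 1.28 FPKM in GLUP libraries, with a log2 fold change of −0.37 (limma adjusted p = 0.373).

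Because each immunoproteasome β subunit takes the place of a constitutive β subunit, their ratio within a library is independent of how the libraries were scaled. PSMB8 amounted to 0.0197 and 0.0153 of PSMB5 in control and to 0.0338 and 0.0303 in GLUP libraries, a geometric mean ratio 1.84 times as high with GLUP (log2 difference 0.88, pooled SD 0.20, n = 2 per group). PSMB9 amounted to 0.818 and 0.297 of PSMB6 in control and to 1.79 and 1.64 in GLUP libraries, 3.47 times as high (log2 difference 1.80, pooled SD 0.73). In both pairs the groups did not overlap, and with any library left out the log2 differences stayed at 0.70 to 1.06 and at 1.07 to 2.53. In contrast, PSMB10 amounted to 0.0955 and 0.213 of PSMB7 in control and to 0.110 and 0.132 in GLUP libraries, which overlap. The summed FPKM of the 3 immuno subunits was 32.1% and 19.9% of the 6 catalytic genes in control and 44.9% and 44.9% in GLUP libraries. PSMB9, at 703 to 2071 FPKM, made up most of that sum. PSMB8 and PSMB10 lay at or under 53.7 FPKM, so the share says little about them. With 2 libraries against 2, an exact permutation test cannot give a two-sided p under 0.333, and the ratios were not tested.

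**Figure D3:**
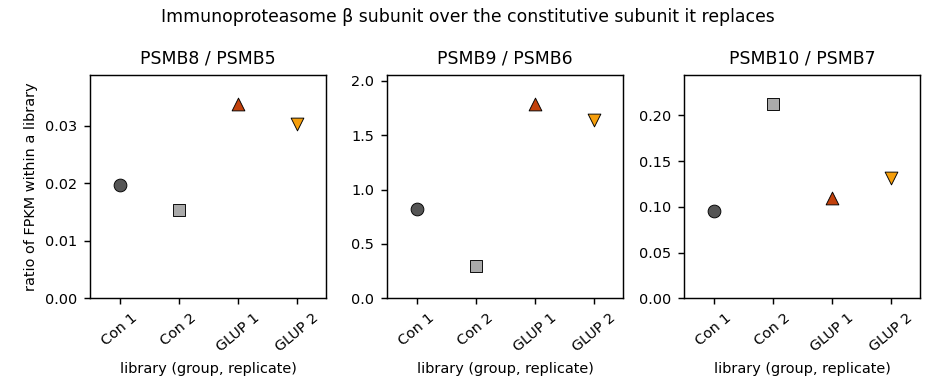
FPKM of an immunoproteasome β gene divided by that of the constitutive gene it replaces, 1 point per library, with panels for PSMB8 over PSMB5, PSMB9 over PSMB6 and PSMB10 over PSMB7. Both GLUP libraries lie above both control libraries in the first pair of panels (0.0338 and 0.0303 against 0.0197 and 0.0153 for PSMB8 over PSMB5), and the groups overlap for PSMB10 over PSMB7.

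PSMB8 and PSMB9 lie next to each other in the MHC class II region, PSMB8 on GRCh37 at chr6:32808494-32812456 on the minus strand and PSMB9 at chr6:32811913-32827628 on the plus strand. They share 544 bases on opposite strands. PSMB9 further overlaps TAP1, the peptide transporter, over 8608 bases on the opposite strand, and the antisense gene PSMB8-AS1 on its own strand. TAP1 was lower than PSMB9 by far, at 5.63 and 2.97 FPKM in control and 8.83 and 9.88 FPKM in GLUP libraries (log2 fold change 1.01 ± 0.36, limma adjusted p = 0.130). PSMB8-AS1 had the opposite order, at 4.12 and 4.48 FPKM in control and 1.70 and 1.61 FPKM in GLUP libraries. PSMB10 shares 1512 bases on its own strand with another protein-coding gene. That gene stood at 13.7 and 16.3 FPKM in control and at 6.13 and 9.50 FPKM in GLUP libraries. Altogether 25 of the 43 genes overlapped another annotated gene, 13 of them a gene with a mean of at least 1 FPKM, so values of single members can include reads of a neighbour.

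A list of 9 interferon and MHC class I genes related to the immunoproteasome had 7 tested members with a median log2 fold change of 0.46, against −0.36 for all genes. At an unadjusted p under 0.05 with a fold change over 2 (limma), 2 were higher (IRF9 and TAP1) and 0 lower. Among all genes tested the shares were 4.67% higher and 14.5% lower. After adjustment 0 of the list passed. IRF9, the DNA-binding part of the interferon complex ISGF3, had the highest value, with 7.30 and 0.972 FPKM in control and 13.9 and 15.7 FPKM in GLUP libraries (log2 fold change 1.97 ± 0.67, limma adjusted p = 0.125). Its partner STAT2 had the lowest, with 13.5 and 53.6 FPKM in control and 12.5 and 10.8 FPKM in GLUP libraries (log2 fold change −1.16 ± 0.64, limma adjusted p = 0.251). IRF9 and STAT2 thus did not share a direction, and control replicate 2 was the lowest library for IRF9 and the highest for STAT2. Without control replicate 1 they were at 3.003 and −2.11, and without control replicate 2 at 0.93 and −0.20.

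Interferon-stimulated response elements (ISRE) bind complexes with IRF proteins, and the letters GAAA, any pair of bases, GAAA were searched on both strands in RefSeq promoters of GRCh38.p14, from 250 bases before to 50 after the start. A promoter was given for 38 of the 43 members. The letters occurred in 6 of the 38 genes (15.8%), against 4.16% of the 5548 tested genes with a promoter and 3.57% of 35116 promoters. Of the 6, 4 belong to the immunoproteasome group (PSMB8, PSMB10, PSME1 and PSME2) and the others are PSMB4 and PSMA4. The stretches before the start are shown for 4 of these genes to set the immunoproteasome beside the constitutive members, with the matching letters in capitals, 5′ to 3′ on the strand of the gene.
PSMB10, chr16:67936851-67936891, minus strand: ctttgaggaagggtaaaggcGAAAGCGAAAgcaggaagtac
PSME2, chr14:24146611-24146658, minus strand: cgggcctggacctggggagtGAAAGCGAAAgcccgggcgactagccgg
PSMB4, chr1:151399485-151399534, plus strand: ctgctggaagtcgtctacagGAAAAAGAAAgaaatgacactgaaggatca
PSMA4, chr15:78540155-78540194, plus strand: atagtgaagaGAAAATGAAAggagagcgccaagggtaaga
PSMB10 and PSME2 have the same 10 matching letters, and their log2 fold changes were −0.22 and −0.69. PSMB8, which also has a match, was at 1.22, and PSMB9, which has none in this window, at 0.82.

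A list of 8 genes of the NRF1 axis had 5 tested members with a median log2 fold change of −0.35. At an unadjusted p under 0.05 with a fold change over 2 (limma), 0 were higher and 1 was lower. Among all genes tested the shares were 4.67% higher and 14.5% lower. After adjustment 0 of the list passed. NFE2L1 itself, which encodes NRF1, was at 1.79 and 1.57 FPKM in control and 1.12 and 1.10 FPKM in GLUP libraries. Its log2 fold change was −0.35, against a median of −0.36 for all genes, but the log2(FPKM + 1) scale understates it at this low level. The lowest was NFE2L2, the related regulator of antioxidant genes, with 5.83 and 12.4 FPKM in control and 3.04 and 2.52 FPKM in GLUP libraries (log2 fold change −1.34 ± 0.40, limma adjusted p = 0.110). VCP, the ATPase that extracts NRF1 from the endoplasmic reticulum, had the highest value, with 16.6 and 7.71 FPKM in control and 19.0 and 18.7 FPKM in GLUP libraries (log2 fold change 0.68 ± 0.42, limma adjusted p = 0.291). Without control replicate 2 VCP was at 0.17 and NFE2L2 at −0.86, without control replicate 1 VCP was at 1.19, and with the trend along GC content removed NFE2L2 was at −0.65 and VCP at 1.02.

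The letters of the antioxidant response element, TGACNNNGC, occurred in the promoters of 13 of the 38 member genes (34.2%), against 19.8% of tested genes and 13.3% of all promoters. They were found in each subunit group, but not evenly. Among genes with a promoter, PSMA4 was the only α gene and PSMB3 the only constitutive β gene, beside 3 of the immunoproteasome group. Examples from the α ring, the β ring, the lid and the immunoproteasome show how the core letters vary, with the match in capitals. The match of PSMB9 is on the other strand and so appears as its reverse complement.
PSMA4, chr15:78540640-78540688, plus strand: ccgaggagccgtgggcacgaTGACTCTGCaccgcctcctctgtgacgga
PSMB3, chr17:38752617-38752665, plus strand: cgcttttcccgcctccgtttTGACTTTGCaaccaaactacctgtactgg
PSMD12, chr17:67366714-67366762, minus strand: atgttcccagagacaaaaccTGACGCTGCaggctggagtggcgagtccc
PSMB9, chr6:32854024-32854072, plus strand: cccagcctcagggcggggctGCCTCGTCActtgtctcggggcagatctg
Among these genes the log2 fold change ran from −1.24 (PSMD12) to 0.82 (PSMB9), with PSMB3 at −0.14 and PSMA4 at −0.69. The CCAAT letters, bound by NF-Y, occurred in 19 of 38 member genes (50%) and in 45.1% of tested genes. A match of letters is a description of the sequence and does not show that a factor was bound.

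Genes that assemble the proteasome or join it in passing formed a list of 13, all tested, with a median log2 fold change of −0.41. Of these, 4 were lower (POMP, PSMG1, UCHL5 and TXNL1) at an unadjusted p under 0.05 with a fold change over 2 (limma). A further 2 were higher (PSMG3 and ADRM1), and 0 passed adjustment. Among all genes tested, 14.5% were lower and 4.67% higher at this threshold. POMP, the maturation factor of the core particle, had 1192 and 1789 FPKM in control and 543 and 607 FPKM in GLUP libraries, at a log2 fold change of −1.35. TXNL1, a thioredoxin-like protein bound to the cap, had the lowest value, with 77.0 and 78.2 FPKM in control and 17.9 and 15.7 FPKM in GLUP libraries (log2 fold change −2.15 ± 0.32, limma adjusted p = 0.10, and −1.37 with the trend along GC content removed). The values of each group differ by little next to the gap between the groups. Within the α-ring chaperones PSMG1 and PSMG3 stood on opposite sides, at −1.27 and 1.30. The ubiquitin receptor ADRM1, which binds PSMD1 in the cap and recruits the deubiquitinase UCHL5, had 41.8 and 4.88 FPKM in control and 85.2 and 71.3 FPKM in GLUP libraries (log2 fold change 2.31 ± 0.90, limma adjusted p = 0.148). Leaving out control replicate 1 gave 3.75 and leaving out control replicate 2 gave 0.88. UCHL5 was opposite to its recruiter, with 14.3 and 18.7 FPKM in control and 5.79 and 5.59 FPKM in GLUP libraries (log2 fold change −1.37). The 4 lower genes had a GC content of 35.2% to 42.1%, and PSMG3 and ADRM1 one of 59.4% and 64.2%. With the trend along GC content removed ADRM1 was at 1.74. The part of GC content in these opposite directions was not tested.

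The ubiquitin genes and the shuttle proteins that bring substrates formed a list of 11 with 9 tested members and a median log2 fold change of 0.11. At the same unadjusted threshold 0 were lower, against 14.5% of all genes, and 0 passed adjustment in either direction. UBB, which encodes a chain of ubiquitin units, had 7627 and 4365 FPKM in control and 9076 and 9871 FPKM in GLUP libraries, without overlap (log2 fold change 0.71 ± 0.32, limma adjusted p = 0.182). RPS27A, a ubiquitin gene fused to a ribosomal protein, overlapped at a log2 fold change of −0.03. UBQLN1, a shuttle, had the lowest value, at 5.33 and 3.20 FPKM in control and 3.11 and 3.03 FPKM in GLUP libraries (log2 fold change −0.34 ± 0.31, limma adjusted p = 0.459).

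Subunits that occur once per ring were not equally abundant as transcripts. In the α ring, the mean over the 4 libraries ran from 17.2 FPKM (PSMA5) to 715 FPKM (PSMA2). PSMA5 was the lowest α gene in every library, and PSMA2 exceeded it by a ratio of 48.1 and 80.2 in control and of 27.0 and 24.2 in GLUP libraries, in which PSMA7 was the highest. In the constitutive β ring PSMB2 was the lowest gene in every library, and the highest was PSMB6 in both control libraries and PSMB3 in both GLUP libraries. The highest over the lowest β gene gave a ratio of 21.0 and 27.8 in control and of 17.5 and 20.7 in GLUP libraries. In the ATPase ring the order depended on the library, with PSMC4 lowest in both control libraries and PSMC6 in both GLUP libraries. PSMC3 over PSMC6 was 15.4 and 4.61 in control and 22.1 and 21.4 in GLUP libraries. In the lid PSMD3 was the lowest gene in every library, and PSMD7 over PSMD3 was 94.2 and 494 in control and 73.3 and 88.9 in GLUP libraries, so control replicate 2 stood apart. Across the 41 members the mean FPKM had a Spearman rho of −0.41 with the length of the longest transcript, and across all genes −0.25, both as descriptions across genes.

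The log2 fold change of the members went with their GC content. Over the 41 members, which share the 4 libraries, the Spearman rho was 0.54, and over 7570 genes it was 0.58. In the 20 members with the lowest GC content (31.96% to 46.9%) the median log2 fold change was −0.72, and 18 were below 0. In the 21 with the highest (47.5% to 61.7%) the median was −0.02, with 11 below 0 and 10 above. The difference of control replicate 2 from replicate 1 had a rho of −0.42 with GC content, and that of GLUP replicate 2 from GLUP replicate 1 a rho of 0.22. When the GC trend of each library was removed, 19 members lay above 0 and 22 below, and the medians of these groups of low and high GC content were −0.07 and −0.08.

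Single members moved by different amounts under this removal. PSME3 went from −1.61 to −1.39, PSMD10 from −1.56 to −0.86, and PSMD14, at 31.96% the lowest in GC content, from −1.25 to −0.35. PSMB1 went from −1.01 to −0.32, PSMD1 from −1.02 to −0.42, PSMD12 from −1.24 to −0.45, PSMC6 from −0.98 to −0.24 and PSMA2 from −0.90 to −0.18. Of the 11 members that were lower at an unadjusted p under 0.05 before the removal, 3 were after it. PSMB9 was at 1.18 with a GC content of 46.9%, PSMB6 at −1.16 with 54.5%, and PSMB8 at 1.09. For PSMA5 the value went from 0.36 to 1.14, and for PSMD13 from 0.85 to 1.09. With the trend removed, 3 members (PSMA5, PSMD13 and PSMB9, 7.32%) were higher and 3 (PSME3, PSMB6 and PSMD10, 7.32%) lower at an unadjusted p under 0.05, against 9.38% and 8.96% of all genes, and 0 passed adjustment. The median of the immunoproteasome group relative to all genes went from 0.45 to 0.01.

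The calls depended on which control library was kept. Without control replicate 1, 18 of 41 members had an adjusted p under 0.05 with a fold change over 2 in limma, 11 lower and 7 higher, and the 7 were PSMB5, PSMB8, PSMB9, PSMC3, PSMC4, PSMD8 and PSMD13. Without control replicate 2, 5 members did, all lower. In these fits the remaining control library is taken to vary as the GLUP pair does, and 35.7% and 13.4% of the 7588 genes were called. Both fits share the GLUP libraries. PSME3, PSMD10, PSMD14 and PSMD12 had log2 fold changes of −1.44, −1.61, −1.32 and −1.47 without control replicate 1. Without control replicate 2 they were at −1.78, −1.52, −1.17 and −1.01. With all libraries and the GC trend removed they were at −1.39, −0.86, −0.35 and −0.45. Without GLUP replicate 1 or GLUP replicate 2, 0 members were called.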

How the data were processed

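HGC-27 RNA was sequenced in 2 control and 2 GLUP libraries. The authors deposited FPKM values per gene, made on the Majorbio platform. The submitters' processing notes name HISAT2, Cufflinks, RSEM and GRCh38.p10, without versions or roles. The 62492 rows (62443 genes after summing rows of the same ID) carry GENCODE identifiers of the form lifted to GRCh37, from which positions, lengths and GC content were taken, and 99.55% of IDs matched a symbol. Genes averaging 1 FPKM or more were tested on log2(FPKM + 1) in limma 3.58.1 (R 4.3.3, mean-variance trend, Benjamini-Hochberg adjustment over 7588 genes), a test that was tried on simulated data. For GC removal, a lowess curve (span 0.3) of the deviations of a library along GC content was subtracted. Other computations used pandas 2.3.3 and scipy 1.17.1. Samples were grouped by their titles. The methods state at least a pair of biological replicates without naming cultures, so p-values cover the spread between these libraries only.

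The members and lists were chosen with earlier results of these data known. Named by rule were the catalytic, immunoproteasome and activator genes, the highest and lowest of each subunit group and pathway list, and members under 1 FPKM. Some genes of the lists are not reported here. All other genes named were chosen after their values were seen. Alternatives were another pseudocount and filters, centring, quantile normalization, a replicate block, no trend, GC removal, a fold of 1.5 and leaving out each library. Promoters are from RefSeq on GRCh38.p14, with none used for PSMA7, PSMB1, PSMB6, PSMB7 and PSMD4.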

Additional observations from a re-analysis of the deposited data

How the results depend on the processing

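With groups of 2 libraries and unknown depth, precision rests on the spread between replicates, and control replicate 2 decides most higher values. In limma, 0 members had an adjusted p under 0.05 with a fold change over 2 when all libraries were used. Their number was also 0 under every alternative that kept the 4 libraries and ran from 0 to 18 with a library left out. The counts and shares at an unadjusted p that follow in this paragraph require the same fold, unless another fold is stated. At an unadjusted p, 0 higher members became 4 with centring on medians (9.76%, against 10.5% of all genes), 3 with quantile normalization (7.32% against 8.87%), 3 with the GC trend removed (7.32% against 4.69%) and 0 to 7 with a library left out (17.1% against 12.9% without control replicate 1). The 6 lower members became 2 (4.88%) with centring, quantile normalization and GC removal (5.64%, 6.4% and 4.56% of all genes), 11 (26.8% against 25.3%) at a fold of 1.5 and 0 to 11 with a library left out (26.8% against 23.0% without control replicate 1). With the replicate number as a block, 1 member was higher (2.44%, against 6.29% of all genes) and 6 were lower (14.6% against 16%). With GC removal and the block, 4 were higher (9.76% against 5.65%) and 2 lower (4.88% against 5.36%). Nothing ties equal numbers to a shared day, and the deviations of the libraries numbered 1 from their group means correlated at 0.126, so the pairing is only a number, and no member passed the adjusted test under the block. The cause of these changes was not tested.

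The median of all members minus that of all genes, −0.05, was 0.047 with a pseudocount of 0.1, −0.37 without the filter, which brings in low genes near 0, 0.0055 at a mean of at least 5 FPKM, −0.12 with quantile normalization and −0.12 to 0.0071 with a library left out. For the core it was −0.02, −0.32 without the filter and −0.10 to 0.25 with a library left out. For the cap it was −0.16, −0.50 without the filter, −0.28 with quantile normalization and −0.35 to −0.030 with a library left out. For the immunoproteasome group it was 0.45, 0.11 without the filter, 0.0092 with the GC trend removed and 0.35 to 0.83 with a library left out.

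Of 29 tested genes under the naming rule, 21 kept the sign of their log2 fold change under every alternative. With centring on medians the sign turned for PSMB10 (0.12), PSMD2 (0.33), PSMD9 (0.28) and UBQLN1 (0.0016), and with quantile normalization for PSMB10 (0.057), PSMD2 (0.37), PSMD9 (0.30) and UBQLN1 (0.00030). With the GC trend removed, alone or with the block, it turned for PSMD9 (0.032), PSME4 (0.27) and UBQLN1 (0.47). With a library left out, 6 genes had values on both sides of 0, namely PSMB10 (−0.46 to 0.014), PSMB5 (−0.30 to 1.13), PSMB7 (−0.32 to 0.35), PSMD2 (−0.25 to 0.22), PSMD9 (−0.18 to 0.051) and PSME1 (−0.30 to 0.49). With all libraries, and wherever the sign had turned, the unadjusted p of these genes was above 0.05.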
